A study of Mus musculus with 12 samples.

Results

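The regions described here were stretches of H3K27ac-marked chromatin centred at promoters of long intergenic noncoding RNA (lincRNA) genes in adult mouse cardiomyocytes. A region was a member when it lay on chromosomes 1 to 19 or X, was under 10000 bp wide, and had its centre between 1000 bp upstream and 100 bp downstream of a transcription start site (TSS) of a gene typed lincRNA in GENCODE M21 (build GRCm38). Its centre also had to be over 1000 bp from every protein-coding TSS. The rule found 319 of 53750 control regions (0.593%) and 311 of 45517 KO regions (0.683%), or 630 of 99267 in all. Members and the regions they overlapped in the other list formed 460 loci at 452 lincRNA genes, of 5305 lincRNA genes annotated on these chromosomes. A further 113 control and 118 KO regions were centred in a lincRNA promoter window but too near a protein-coding TSS, and 4 control and 10 KO regions were too wide. The widest members were 9609 bp in control and 8998 bp in KO, and the narrowest regions left out for width were 10066 bp and 10471 bp.

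LincRNAs are capped, usually spliced transcripts from their own genes that encode no known protein, and many are made in a few cell types. They act in nuclear bodies, in X inactivation, as hosts of small RNAs cut from their introns or exons, or in control of genes beside them, and for many no function is known. H3K27ac is an acetyl mark on histone H3 found at active promoters and enhancers. A marked lincRNA TSS can therefore be a promoter, an enhancer that is transcribed, or both.

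RIP140, encoded by Nrip1, is a corepressor of nuclear receptors that govern fuel metabolism in heart muscle. The study asked how its loss changes H3K27ac in cardiomyocytes, using CUT&RUN, in which an antibody guides a nuclease to a histone mark. KO mice were Nrip1 f/f with Nkx2.5-Cre (Cre+), which deletes the floxed alleles where the cardiac Nkx2.5 promoter is active, and Control mice were Nrip1 f/f without Cre (Cre-), so both groups carried the floxed alleles and no group carried Cre alone. All mice were 10 to 12 weeks old male littermates, cells came from perfused hearts and were enriched as cardiomyocytes by slow centrifugation, and 200000 cells went into each experiment. Each genotype had 3 H3K27ac and 3 IgG samples, and the KO and Control regions were each deposited as 1 list of regions found in at least 2 of 3 replicates.

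With 1 merged list per genotype there was no spread between replicates and no read count, so no difference below could be set against replicate error, and no p-value is given. Intervals are 95% Wilson intervals and cover counting error only. As a check on the labels, 2904 bp of the 7616 bp last exon of Nrip1 lay in Control regions and 0 bp in KO regions. Promoter windows of 9 of 10 cardiomyocyte markers were covered in each list (Nppa was not), and of macrophage markers 0 of 5. Endothelial marker promoters were covered for 6 of 6 in Control and 5 of 6 in KO (not Cdh5), and fibroblast marker promoters for 2 of 7 in Control and 0 of 7 in KO. The part of these cell types in the differences below was not tested.

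The sequences below are the central 200 bp of regions that the results turn on, read 5′ to 3′ on the strand of the lincRNA from RefSeq's GRCm38.p6. Capitals mark matches, on either strand, to any of 12 motifs described further on. The first 6 regions were found only in KO and are shown because they were the widest such regions or, for Trp53cor1, lie at a lincRNA studied in the heart.
Gm30085 (chr15:93001167-93001366, + strand): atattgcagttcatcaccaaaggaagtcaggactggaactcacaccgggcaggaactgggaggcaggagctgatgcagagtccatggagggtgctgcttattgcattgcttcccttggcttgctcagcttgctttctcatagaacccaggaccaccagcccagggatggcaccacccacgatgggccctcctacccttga
Gm39090 (chr7:127691211-127691410, + strand): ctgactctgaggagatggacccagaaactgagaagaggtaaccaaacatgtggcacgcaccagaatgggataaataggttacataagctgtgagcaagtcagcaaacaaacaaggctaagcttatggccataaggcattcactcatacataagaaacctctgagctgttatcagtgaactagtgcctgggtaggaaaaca
Gm13056 (chr4:141278287-141278486, + strand): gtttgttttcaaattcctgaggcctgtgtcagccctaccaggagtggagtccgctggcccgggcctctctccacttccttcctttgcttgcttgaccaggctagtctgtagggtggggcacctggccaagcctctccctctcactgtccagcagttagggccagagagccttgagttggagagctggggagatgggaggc
Gm33699 (chr9:61031383-61031582, + strand): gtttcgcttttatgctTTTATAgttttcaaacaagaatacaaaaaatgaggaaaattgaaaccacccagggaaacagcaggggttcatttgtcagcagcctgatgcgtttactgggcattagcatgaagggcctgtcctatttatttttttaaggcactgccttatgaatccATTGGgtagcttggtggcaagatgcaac
Gm11527 (chr11:95859180-95859379, - strand): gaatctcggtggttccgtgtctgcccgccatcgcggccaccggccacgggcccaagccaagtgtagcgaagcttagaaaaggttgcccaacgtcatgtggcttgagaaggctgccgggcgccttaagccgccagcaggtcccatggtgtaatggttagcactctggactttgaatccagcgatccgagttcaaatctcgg
Trp53cor1 (chr17:29073189-29073388, - strand): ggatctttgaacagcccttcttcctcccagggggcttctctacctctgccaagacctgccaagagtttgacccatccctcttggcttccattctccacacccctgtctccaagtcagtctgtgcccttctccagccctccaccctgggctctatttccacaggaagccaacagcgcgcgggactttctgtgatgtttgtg

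Of these 6, only Gm33699 held a match (TATA and NF-Y letters), and only Gm11527 had a CpG-dense centre, with 15 CpG in 200 bp against 1 to 3 in the others. The next 5 were found only in Control: 4 of the 6 widest such regions, and the promoter of Mir17hg, the host of the miR-17-92 cluster.
Gm33782 (chr10:96309744-96309943, + strand): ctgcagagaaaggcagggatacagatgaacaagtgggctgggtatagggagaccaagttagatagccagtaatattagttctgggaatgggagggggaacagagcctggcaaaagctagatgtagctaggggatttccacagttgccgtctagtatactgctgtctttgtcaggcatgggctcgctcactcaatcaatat
AC091309.5 (chr17:84025972-84026171, - strand): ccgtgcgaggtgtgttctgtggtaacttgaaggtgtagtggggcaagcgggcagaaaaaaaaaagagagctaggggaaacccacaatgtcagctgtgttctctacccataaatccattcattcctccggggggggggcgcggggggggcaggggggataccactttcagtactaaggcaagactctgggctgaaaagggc
Gm29591 (chr6:17347534-17347733, + strand): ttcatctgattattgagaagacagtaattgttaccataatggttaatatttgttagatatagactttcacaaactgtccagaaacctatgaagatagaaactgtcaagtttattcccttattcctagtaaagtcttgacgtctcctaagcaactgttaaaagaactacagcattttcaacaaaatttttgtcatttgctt
Gm41148 (chr14:47805806-47806005, - strand): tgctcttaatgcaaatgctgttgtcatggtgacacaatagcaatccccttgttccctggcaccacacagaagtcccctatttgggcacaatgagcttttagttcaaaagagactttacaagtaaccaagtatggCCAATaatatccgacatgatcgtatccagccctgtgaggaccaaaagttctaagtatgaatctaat
Mir17hg (chr14:115042599-115042798, + strand): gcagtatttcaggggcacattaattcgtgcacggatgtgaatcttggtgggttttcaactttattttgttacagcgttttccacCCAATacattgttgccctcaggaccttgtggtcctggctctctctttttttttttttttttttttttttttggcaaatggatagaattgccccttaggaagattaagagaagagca

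These Control-only centres held 1 to 6 CpG each. Gm41148 and Mir17hg each had an NF-Y match and the other 3 had none. The last 4 are promoters of small RNA hosts marked in both genotypes, shown because their values are given among the function lists.
Snhg6 (chr1:9943773-9943972, - strand): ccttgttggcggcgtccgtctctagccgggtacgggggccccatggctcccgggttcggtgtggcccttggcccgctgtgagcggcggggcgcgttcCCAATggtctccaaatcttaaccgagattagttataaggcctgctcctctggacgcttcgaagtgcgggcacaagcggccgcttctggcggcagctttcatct
Snhg12 (chr4:132309007-132309206, + strand): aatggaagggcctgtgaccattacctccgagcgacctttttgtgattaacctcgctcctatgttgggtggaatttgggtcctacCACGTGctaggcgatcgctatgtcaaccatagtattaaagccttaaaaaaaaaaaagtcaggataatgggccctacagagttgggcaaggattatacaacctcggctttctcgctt
Snhg20 (chr11:117076547-117076746, + strand): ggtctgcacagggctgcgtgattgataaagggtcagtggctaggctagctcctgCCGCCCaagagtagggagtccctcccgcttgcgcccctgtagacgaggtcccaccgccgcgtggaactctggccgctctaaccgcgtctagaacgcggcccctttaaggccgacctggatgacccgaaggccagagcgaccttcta
Mir155hg (chr16:84702859-84703058, + strand): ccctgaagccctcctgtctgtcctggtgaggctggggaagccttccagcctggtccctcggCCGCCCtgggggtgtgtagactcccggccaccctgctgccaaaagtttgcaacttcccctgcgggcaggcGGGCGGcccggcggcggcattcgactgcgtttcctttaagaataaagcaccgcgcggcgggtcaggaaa

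These 4 centres held 8 to 19 CpG in 200 bp, a range that also takes in the 15 of the KO-only Gm11527, and other shared centres held fewer, such as 2 at Pvt1. Each held 1 match except Mir155hg, which held 2 Sp1 matches. Mir17hg carries 6 miRNA precursors, and its region in Control ended 88 bp before the Mir17 hairpin. Its main mature miRNAs follow, with the seed (bases 2 to 8, which pair with target mRNAs) in capitals, together with the miRNA of Mir155hg.
miR-17-5p (chr14:115043684-115043706, + strand): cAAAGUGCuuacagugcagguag
miR-20a-5p (chr14:115044183-115044205, + strand): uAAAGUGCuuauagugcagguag
miR-18a-5p (chr14:115043867-115043889, + strand): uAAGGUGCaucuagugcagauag
miR-19a-3p (chr14:115044048-115044070, + strand): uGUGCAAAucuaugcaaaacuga
miR-19b-3p (chr14:115044358-115044380, + strand): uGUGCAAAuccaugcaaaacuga
miR-92a-3p (chr14:115044476-115044496, + strand): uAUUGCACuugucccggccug
miR-155-5p (chr16:84714143-84714165, + strand): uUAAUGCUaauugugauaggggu

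The seed AAAGUGC was shared by miR-17-5p and miR-20a-5p, and GUGCAAA by miR-19a-3p and miR-19b-3p. The seeds of miR-18a-5p, miR-92a-3p and miR-155-5p were each held by 1 of the 26 mature miRNAs that RefSeq lists for miRNA genes inside lincRNAs with a member outside chromosome 18.

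Most lincRNA promoter regions were marked in both genotypes. Of 319 Control members, 70 had no overlapping KO region (21.9%, interval 17.8 to 26.8%), against 29.5% of all Control regions. Of 311 KO members, 50 had no overlapping Control region (16.1%, interval 12.4 to 20.6%), against 21.5% of all KO regions. Both shares lay below those of the whole lists. They lay above them when both lists kept only regions joining 3 or more peak calls, as described further on (36.6% against 31.2% in Control, 50.0% against 37.4% in KO). The Control list was the longer (53750 against 45517 regions), and with equal numbers of the widest regions the Control-only share was no longer the larger. Regions at protein-coding promoters stood at 11.8% of 5951 in Control and 14.6% of 5732 in KO, and other regions under 10000 bp at 32.9% and 23.8%. LincRNA promoters sat between coding promoters and other regions in Control. In KO the interval for lincRNA promoters contained the coding promoter value.

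Width went with these shares. Control-only members had a median width of 1127 bp (507 to 2433 bp) and KO-only members of 1054 bp (626 to 3722 bp), while shared members had medians of 2207 bp in Control and 2402 bp in KO. Under 1000 bp, 26 of 46 Control members (56.5%) and 20 of 37 KO members (54.1%) were in 1 list only, where all regions of that width stood at 66.8% and 57.6%. Between 1000 and 2000 bp the counts were 40 of 127 (31.5%) and 22 of 104 (21.2%), where all regions stood at 35.3% and 30.7%. From 2000 to 4000 bp they were 4 of 106 (3.77%, interval 1.48 to 9.30%) and 8 of 106 (7.55%, interval 3.87 to 14.2%), where all regions of that width stood at 13.2% and 13.8%. At 4000 bp and above, 0 of 40 Control members and 0 of 64 KO members were in 1 list only, which allows shares of up to 8.76% and 5.66%, and all regions stood at 2.44% and 3.25%.

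**Figure D1:**
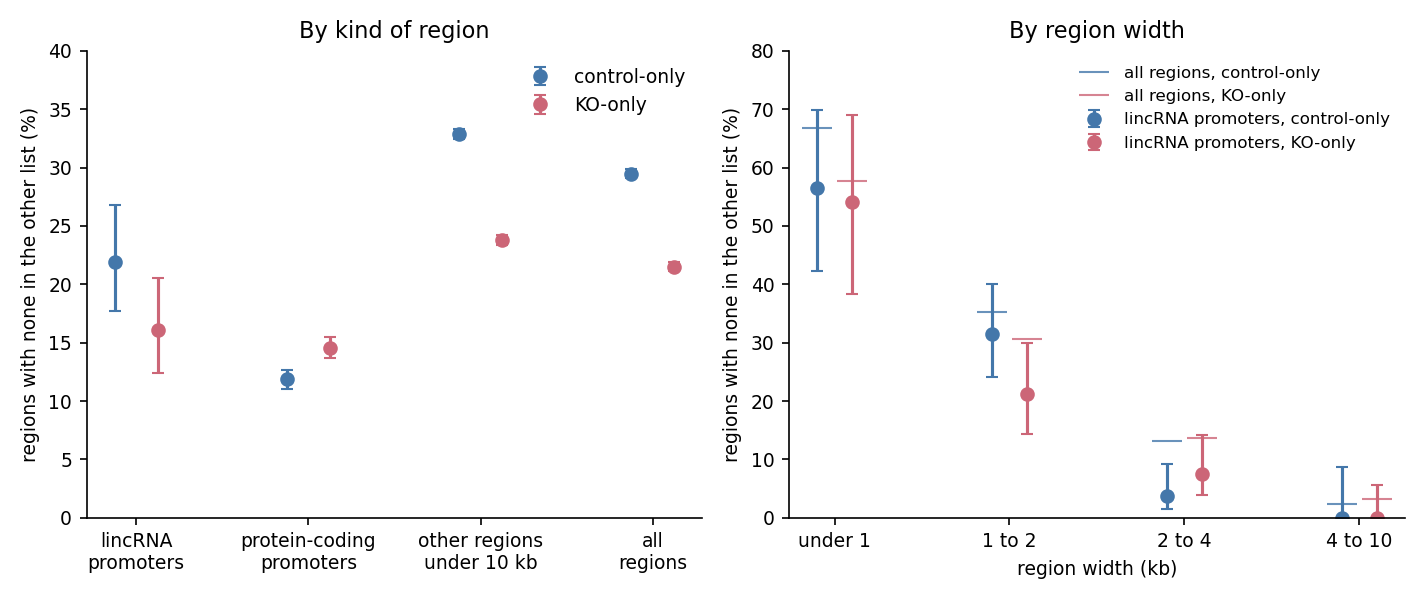
Share of regions with no overlapping region in the other list, as percent, for Control (blue) and KO (red), by kind of region on the left and by region width in kb on the right. Points with bars are values with 95% Wilson intervals, and on the right the horizontal ticks are all regions of that width. LincRNA promoters stood at 21.9% and 16.1% on the left, and on the right no member of 4000 bp or more was in 1 list only.

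The number of peak calls joined into a region is written into each region's name. Its lowest value among members is 2 and it reaches 6 at Gm35330, so it counts joined calls, which can be several from 1 replicate, and not replicates. Among Control members, 2 of 70 Control-only regions joined 3 or more calls, against 80 of 249 shared ones (32.1%). Among KO members, 5 of 50 KO-only regions joined 3 or more, against 119 of 261 shared ones (45.6%). Just 2 calls were joined in 74.3% of Control and 60.1% of KO members, against 68.9% and 61.0% of all regions. The split between single-list and shared regions was not computed over all regions, and the single-list members were also narrower, so it is not known to be particular to lincRNA promoters. The Control-only regions with 3 calls were at Platr22 (1927 bp) and Gm12746 (1371 bp), the latter nearest to Acot11, an acyl-CoA thioesterase gene whose promoter window was covered in KO and not in Control. The KO-only regions with 3 calls were at Gm39090 (3552 bp), Gm11527 (2574 bp), Gm48952 (1468 bp), AC147220.1 (1354 bp) and 4732465J04Rik (1190 bp). Gm12746, Gm48952, AC147220.1 and 4732465J04Rik were picked out here after their values were seen.

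Among the widest KO-only regions, the one at Gm30085 covered 3722 bp (chr15:92999406-93003127) with its centre at -557 bp from the TSS. Its nearest protein-coding gene was Pdzrn4, 257624 bp away, whose promoter window was covered in neither list. Gm39090 had 3552 bp (chr7:127689535-127693086), and its TSS lay inside Bcl7c, which encodes a subunit of SWI/SNF chromatin remodelling complexes. Gm13056 had 3231 bp (chr4:141276772-141280002), 22853 bp from a TSS of the receptor tyrosine kinase gene Epha2. At Gm39090 and Gm13056 the window of the nearest coding TSS was covered in both genotypes, meaning that a region overlapped it by at least 1 bp. Whether the mark at that coding promoter differed in width or level was not compared. Gm33699 had 2794 bp (chr9:61030086-61032879), nearest to Uaca. Gm11527 had 2574 bp (chr11:95857993-95860566), nearest to the G protein subunit gene Gngt2, whose promoter window was covered in KO and not in Control. Gm47889 had 2299 bp (chr10:43517253-43519551).

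The widest Control-only regions were narrower. Gm33782 had 2433 bp (chr10:96308628-96311060), 173241 bp from the nearest coding TSS. At 2310039L15Rik a Control-only region of 2202 bp (chr10:95360295-95362496) lay at an internal TSS, nearest to Socs2, a suppressor of cytokine signalling, and another TSS of the same lincRNA was marked in both genotypes over 7102 bp in Control and 7408 bp in KO. AC091309.5 had 2064 bp (chr17:84025040-84027103), and Gm29591 had 2014 bp (chr6:17346627-17348640), 39911 bp from a TSS of the caveolin gene Cav1. The windows of Socs2, Zfp36l2 (nearest to AC091309.5) and Cav1 were covered in both genotypes. Gm41148 had 1940 bp (chr14:47804936-47806875) and Platr22, named for its expression in pluripotent cells, 1927 bp (chr1:136694740-136696666).

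For the 70 Control-only regions, the window of the nearest coding TSS was covered in both lists at 32, in neither at 32, in Control alone at 3 and in KO alone at 3. For the 50 KO-only regions the counts were 19, 24, 3 and 4. Over all members, that window was covered in the member's own list at 181 of 319 in Control and 191 of 311 in KO. For the single-list members it was covered in the own list at 35 of 70 and 23 of 50. Counted by gene and not by nearest TSS, the promoter window was covered in both lists for 10380 of all 21755 coding genes (47.7%) and in neither for 9662. It was covered in Control alone for 631 (2.90%) and in KO alone for 1082 (4.97%). The KO-alone windows beside KO-only regions belonged to Acsl3, an acyl-CoA synthetase that activates long-chain fatty acids (5730419F03Rik, 48097 bp away), Gngt2 (Gm11527), Abcc4 (Gm27198) and Hunk (Gm36001), named here after their values were seen. By distance, Control-only regions made up 5 of 30 Control members under 5000 bp from a coding TSS, 26 of 141 between 5000 and 50000 bp, and 39 of 148 beyond (26.4%, interval 19.9 to 34.0%). KO-only regions made up 2 of 19, 26 of 150 and 22 of 142 (15.5%, interval 10.5 to 22.3%). The intervals beyond 50000 bp overlapped. All regions stood at 29.5% in Control and 21.5% in KO at any distance, and their shares by distance were not computed.

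At loci marked in both genotypes, the covered length was compared. There were 340 such loci: 169 with a member in both lists, 92 where only the KO region and 79 where only the Control region had its centre in the promoter window. On the log2 scale, covered length in KO over that in Control had a median of 0.05 (interval -0.01 to 0.13, from order statistics), against 0.08 over all 32645 shared loci. Over 1.5-fold wider in KO were 50 loci (14.7%, interval 11.3 to 18.9%), against 17.3% of all shared loci. Over 1.5-fold narrower were 35 (10.3%, interval 7.5 to 14%), against 10.3%. The other 255 (75%) were within 1.5-fold. Neither share of the lincRNA promoter loci departed from the whole by more than its interval. At 266 loci 1 region met 1 region. There the KO edge lay a median of 30.5 bp further out than the Control edge on the upstream side (quartiles -250 and 332 bp). On the downstream side it lay 20 bp further out (quartiles -220 and 372 bp). At 40 loci several Control regions met 1 KO region, and at 18 several KO regions met 1 Control region. The edge shifts and these counts were not computed over all shared loci. The KO list as a whole had fewer and wider regions, 45517 with a median of 2291 bp against 53750 with 1846 bp in Control. The counts therefore describe these loci and not a trait of lincRNA promoters.

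**Figure D2:**
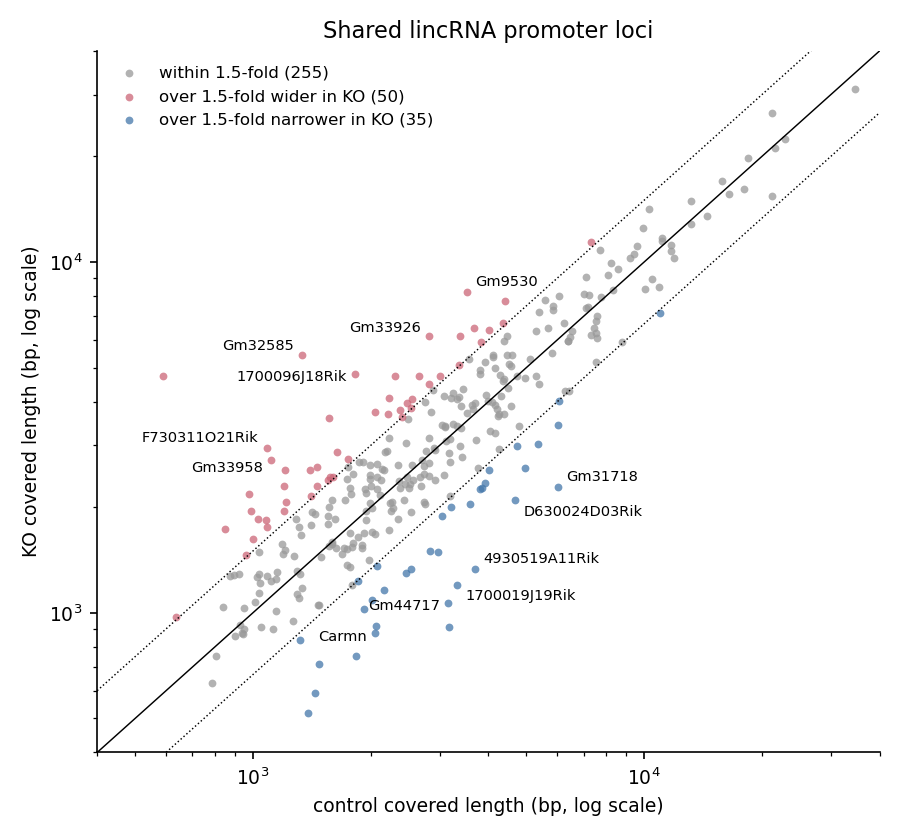
Covered length in bp at the 340 shared lincRNA promoter loci, Control on the horizontal and KO on the vertical axis, both on a log scale. The solid line marks equal length and the dotted lines 1.5-fold, 50 loci lie above the upper and 35 below the lower dotted line, and the labels name the loci most widened and most narrowed with Gm33926 and Carmn.

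The loci most widened in KO, among those of at least 1000 bp in both genotypes, started with Gm32585 (chr5:125270105-125275550). It was 1336 bp in Control and 5446 bp in KO (log2 ratio 2.03) and lay 11344 bp from a TSS of Scarb1, the receptor for high-density lipoprotein. The window of that Scarb1 TSS was covered in Control and not in KO. F730311O21Rik went from 1085 bp to 2947 bp (1.44), beside Nuak2, a kinase related to AMPK. 1700096J18Rik went from 1823 bp to 4781 bp (1.39), beside the G protein gene Gna13. Gm33958 went from 1113 bp to 2732 bp (1.3). Gm9530 went from 3518 bp to 8208 bp (1.22), beside the immediate early gene Ier5. At Gm32585 and Gm9530 most of the added length lay beyond the downstream edge of the Control region (3079 and 4663 bp). At both of these loci the Control region lay wholly upstream of the TSS, so part of that length was upstream of the TSS too. At F730311O21Rik, 1700096J18Rik and Gm33958 most of it lay beyond the upstream edge (1375, 2735 and 1856 bp).

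The most narrowed loci were of like size in the other direction. Gm44717 (chr8), nearest to the basement membrane collagen gene Col4a1, went from 3160 bp in Control to 1064 bp in KO (log2 ratio -1.57). 1700019J19Rik went from 3325 bp to 1197 bp (-1.47), nearest to the sestrin gene Sesn3. 4930519A11Rik went from 3695 bp to 1331 bp (-1.47), 36066 bp from Mycn, a Myc family transcription factor of growing heart. Gm31718 went from 6015 bp to 2282 bp (-1.40), nearest to the mitochondrial import receptor gene Tomm20. D630024D03Rik went from 4684 bp to 2100 bp (-1.16), nearest to Cpeb4. Against the Control edge, the KO edge lay at -2077 bp on the upstream side at 4930519A11Rik and at -2901 bp on the downstream side at D630024D03Rik, the minus sign marking an edge nearer to the TSS.

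The 5 widest members were all shared. Gm35330, nearest to the transcription factor gene Klf6, had a Control region of 9609 bp. Gm27017 had 8998 bp in KO, Gm47734 had 8973 bp in Control, Gm13481 had 8762 bp in Control and Gm12107 had 8542 bp in KO. As loci, with every overlapping region joined, Gm35330 covered 9609 bp in Control and 11080 bp in KO, Gm27017 covered 11091 and 11513 bp, Gm47734 11105 and 11733 bp, and Gm12107 14508 and 13541 bp. All 4 were within 1.5-fold, and so was Gm13481, with 8762 bp in Control and 5916 bp in KO.

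Of 34 lincRNAs on lists of known function, drawn from 81 symbols of which the rest are not typed lincRNA in M21 or did not match, 10 had a member. Promoter windows were covered in Control for 20 of the 34 and in KO for 18, all 18 being covered in Control too. Of all 5305 lincRNA genes, windows were covered in both lists for 892, in Control only for 162 and in KO only for 159. The nuclear body lincRNAs Malat1 and Neat1 were covered across the whole 1101 bp window in both genotypes, in regions of 16032 and 15235 bp and of 17828 and 23800 bp that were too wide to be members.

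Host genes of small nucleolar RNAs, which guide RNA modification, were covered in both genotypes for 6 of 6. Snhg6 had 2248 bp in Control and 1945 bp in KO, Snhg12 had 2344 and 2642 bp, and Snhg20 had 2459 and 1301 bp, the last over 1.5-fold narrower (log2 ratio -0.92). Snhg10, Snhg18 and Epb41l4aos were covered but were no members. Snhg18 lay in a region of 786 bp in Control and 2089 bp in KO.

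Of 9 host genes of miRNAs or lincRNAs listed with them, windows were covered for 5 in Control and 3 in KO. Mir17hg, whose miRNAs are known to promote cell proliferation, had 1770 bp in Control (chr14:115041814-115043583, joining 2 peak calls) covering its whole 1101 bp window, and 0 bp in KO. Mir155hg, host of a miRNA of immune cells, had 3809 bp in Control and 2261 bp in KO (log2 ratio -0.75), although its window was covered over 435 bp in Control and 1047 bp in KO. Carmn, a lincRNA of the cardiac lineage and of smooth muscle, had 2057 bp in Control and 878 bp in KO (-1.23), with 1101 and 327 bp of its window covered. Mirt1, named for myocardial infarction, was no member, with 1019 bp of its window covered in Control and 0 bp in KO. Lncpint was covered whole in both, and Mir124a-1hg, Mir124-2hg, Mir142hg and Mir9-3hg in neither. Over the whole locus, the 3 members among these hosts had less covered length in KO or none, although the Mir155hg window itself was more covered in KO. Of all 340 shared lincRNA promoter loci, 155 were narrower in KO by any amount. Fewer fibroblast and endothelial marker promoters were covered in KO (0 against 2 of 7, and 5 against 6 of 6), and the part of other cell types was not tested.

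By annotation alone, 18 of the 452 lincRNA genes with a member held a miRNA or small nucleolar RNA gene on the same strand (3.98%), against 98 of all 5305 (1.85%). Such hosts made up 12 of 336 genes with a shared locus, 5 of 70 with a Control-only locus and 1 of 50 with a KO-only locus. Beside Mir17hg, the Control-only hosts were Mir670hg (1048 bp, miR-670 and miR-129-2), A930003A15Rik (988 bp), Gm32624 (1423 bp) and AC113104.3 (1151 bp), and the KO-only host was Gm26551 (755 bp). These were named after their values were seen. Gm27028, host of Mir30c-2, a miRNA gene expressed in heart, was shared at 3391 bp in Control and 2980 bp in KO.

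Of 3 X inactivation lincRNAs, Jpx and Ftx, both activators of Xist, were marked at near equal length. The main Jpx promoter had 3118 bp in Control and 3082 bp in KO, and the Ftx promoters had 2362 and 2374 bp and 2826 and 2668 bp. A second Jpx region of 1144 bp, at an internal TSS, was Control-only. Xist had no region at its promoter in either list, nor had the imprinted lincRNAs H19, Meg3 and Mirg.

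Of 11 lincRNAs studied in the heart, 5 were covered in both genotypes. Pvt1, which lies beside Myc, had 3 shared promoters with 2049 and 1681 bp, 2750 and 2038 bp, and 1023 and 1267 bp in Control and KO. Trp53cor1, a p53 target beside the cell cycle inhibitor gene Cdkn1a, had a KO-only region of 1213 bp (chr17:29072683-29073895) at an internal TSS, while its most covered window had 642 bp in Control and 1101 bp in KO. Bvht, needed for cardiac commitment of mesoderm, and Dubr were covered but were no members. Chaer1, a regulator of hypertrophic growth, was no member, with 542 bp of its window covered in Control and 1101 bp in KO, in regions of 5571 bp and 25055 bp. Miat, Rubie, Hotair, Hottip, Pantr1 and Platr4 had no covered window in either list.

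**Figure D3:**
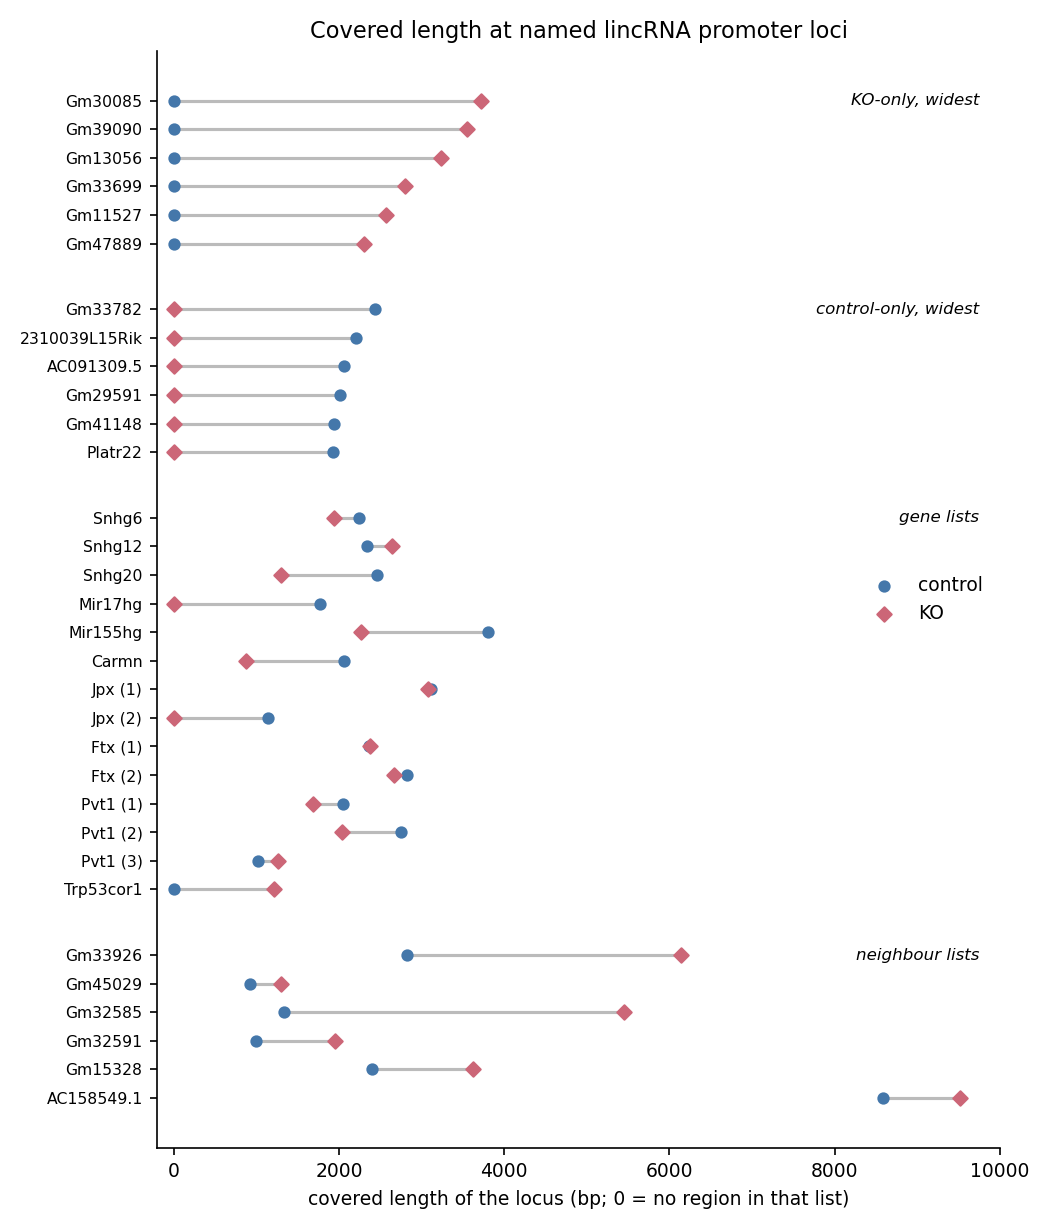
Covered length in bp of named lincRNA promoter loci in Control (blue circles) and KO (red diamonds), in 4 groups: the 6 widest KO-only, the 6 widest Control-only, members of the function lists, and members beside genes of the heart lists. A value of 0 means no region in that list, and numbers in brackets count loci of 1 gene. Carmn, Snhg20 and Mir155hg lie further left in KO, and Gm33926 and Gm32585 further right.

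Among 24 cardiac transcription factor, 33 fuel metabolism, and 42 contraction and calcium cycling genes, 6 were the nearest coding gene of a member locus. All 6 loci were marked in both genotypes, as were 340 of all 460 member loci. Of the 6, 4 were over 1.5-fold wider in KO and 0 narrower. The shares were 14.7% and 10.3% of shared lincRNA promoter loci, and 17.3% and 10.3% of all shared loci. Gm33926, 71075 bp from Mef2a, a cardiac transcription factor, had 2819 bp in Control and 6141 bp in KO (log2 ratio 1.12). Gm32585 beside Scarb1 was described above. Gm32591, 56980 bp from the hexokinase gene Hk2, had 991 and 1950 bp (0.98). Gm15328, 6475 bp from the N-cadherin gene Cdh2, had 2399 and 3627 bp (0.60). Gm45029, 306686 bp from Nrip1 itself, had 922 and 1293 bp (0.49), and AC158549.1, 23050 bp from the beta-adrenergic receptor gene Adrb1, had 8591 and 9524 bp (0.15). With 6 loci and no replicate error, the count describes these loci only.

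LincRNA promoter regions differed from coding promoter regions in base composition. A region was called CpG-rich when the CpG observed to expected ratio of its central 500 bp was at least 0.6 and GC at least 50%. This held for 30 of 319 Control members (9.40%, interval 6.67 to 13.1%) and 28 of 311 KO members (9.0%, interval 6.30 to 12.7%). It held for 52.2% of Control and 55.9% of KO regions at coding promoters, and for 9.29% and 11.4% of all regions. None of the 70 Control-only members was CpG-rich, which allows a share of up to 5.20%, while 30 of 249 shared Control members were (12.0%, interval 8.57 to 16.7%). Of the KO-only members 4 of 50 were (8.0%, interval 3.15 to 18.8%), and of shared KO members 24 of 261 (9.20%). Over all regions the Control-only share was 2.32% against 12.2% of shared regions, and the KO-only share 7.09% against 12.6%.

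The 12 motifs were searched on both strands of the central 200 bp: CCAAT for NF-Y, GGGCGG for Sp1, TGANTCA for AP-1, TATAAA for the TATA box, AGATAA for GATA factors, CACGTG for the E-box, CCGGAAGT for ETS factors, TCAAGGTCA for ERR, TGACGTCA for CRE, GCGCATGC for NRF1, AAGATGGCG for YY1, and MEF2, whose matches can overlap the TATA letters. The commonest was NF-Y, in 64 Control members (20.1%, interval 16.0 to 24.8%) and 74 KO members (23.8%, interval 19.4 to 28.8%), against 23.0% and 22.7% of all regions. Sp1 letters were in 10.7% of Control and 13.5% of KO members, against 33.1% and 35.7% of regions at coding promoters and 7.90% and 9.27% of all regions. The intervals for lincRNA promoters, 7.73 to 14.5% and 10.1 to 17.8%, lay well under the coding promoter values. AP-1 letters, bound by Fos and Jun, were in 19 Control members (5.96%, interval 3.85 to 9.11%) and 31 KO members (9.97%, interval 7.11 to 13.8%), against 6.30% and 6.11% of all regions.

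ERR letters, the site of the estrogen-related receptors that RIP140 represses, were in 1 member of each list (0.31% and 0.32%), against 0.66% and 0.67% of all regions. MEF2 matches were in 5 Control and 2 KO members (1.57% and 0.64%), against 1.1% and 1.05% of all regions. GATA letters were in 9.40% and 6.75%, against 12.0% and 11.1% of all regions, and the E-box in 6.58% and 4.18%, against 2.89% and 3.07%. At coding promoters, GATA letters stood at 5.80% and 4.99% and the E-box at 5.23% and 5.15%. Among regions in 1 list only, NF-Y letters were in 18 of 70 Control-only members (25.7%, interval 16.9 to 37.0%) and 17 of 50 KO-only members (34.0%, interval 22.4 to 47.8%), where all Control-only and KO-only regions stood at 23.7% and 22.7%. AP-1 letters were in 4 of 70 and 7 of 50, the latter 14% (interval 6.95 to 26.2%) where all KO-only regions stood at 6.48%. The E-box was in 7 of 70 Control-only and 0 of 50 KO-only members, the latter allowing up to 7.13%, where all Control-only and KO-only regions stood at 2.22% and 2.73%. GATA letters were in 5 of 70 and 4 of 50 (7.14% and 8.0%), where all such regions stood at 13.5% and 11.8%. TATA letters were in 8 and 3 (11.4% and 6.0%), against 17.0% and 13.7%. Sp1 letters were in 2 and 6 (2.86% and 12.0%), against 3.62% and 7.40%. MEF2 matches were in 2 and 1, and ERR, CRE, ETS, NRF1 and YY1 letters in 0 of both. A match describes letters in these windows and does not show that a factor was bound.

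**Figure D4:**
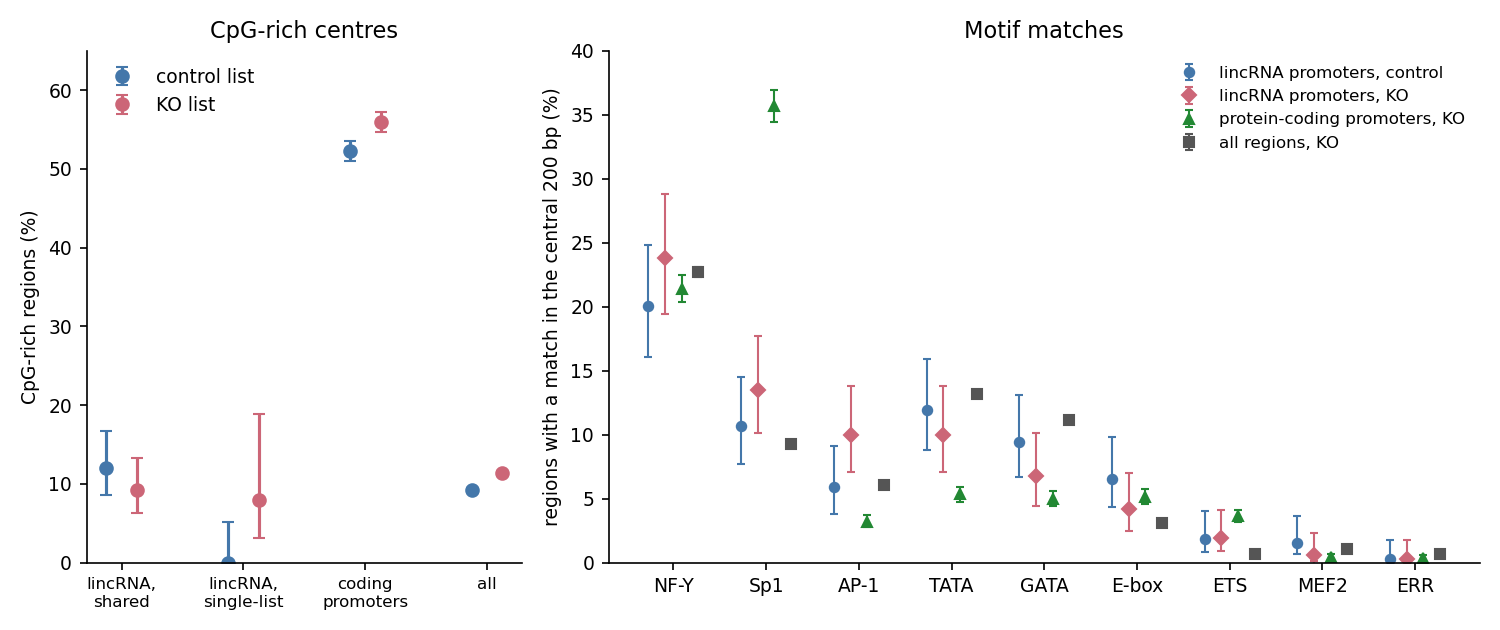
Left, share of regions with a CpG-rich centre, in percent, for shared and 1-list lincRNA promoter members, coding promoters and all regions, in Control (blue) and KO (red). Right, share of regions, in percent, with a match to each of 9 motifs, for lincRNA promoters in both lists and for coding promoters and all regions in KO; bars are 95% Wilson intervals, and Sp1 at coding promoters (35.7%) stands above lincRNA promoters (10.7% and 13.5%).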

How the data were processed

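H3K27ac and IgG CUT&RUN were done in 12 samples of 2 genotypes. Per the study's methods, the authors mapped read pairs with Bowtie2 2.4.2 (build GRCm38), dropped duplicate pairs using SAMtools, called regions per replicate against IgG with HOMER 4.11.1, and merged those found in at least 2 of 3 replicates. The deposited lists give start and end in bp and a score that is 1 in every row, so regions carry no signal or p-value and the depth of each library is not known here. IgG samples have no list used here.

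Groups came from the labels. Regions on chromosomes 1 to 19 and X were used, which left out 25 Control and 18 KO regions. The members and lists were chosen with earlier results of these data known. Control-only and KO-only meant no overlap of at least 1 bp, and loci were sets of overlapping regions, with covered length as their union. Genes named were those of the function lists with a member, the 6 widest regions of each single-list class, the 5 most widened and 5 most narrowed loci of at least 1000 bp in both genotypes, and the 5 widest members. Python 3.11.15, NumPy 2.4.6, SciPy 1.17.1 and pysam 0.24.0 were used, with GENCODE M21 and RefSeq's GRCm38.p6. The counting was checked on simulated lists with at most 1 region per list, on a shared centre, at well separated TSSs. It recovered these exactly, but loci with several regions in a list were not simulated. A total of 12 alternatives were tried: the overlap rule, the TSSs, the promoter limits, the distance from coding TSSs, the width limit, narrow regions, peak calls joined and list size. No replicate could be left out, since lists were merged.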

Additional observations from a re-analysis of the deposited data

How the results depend on the processing

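With 12 alternatives, 39 of 51 values of the main counts and the median stayed within 1.5-fold of the main value or within its interval, and the median log2 ratio stayed above 0 throughout, from 0.03 to 0.10. Counts were compared as counts although the number of members changed, so this tally does not measure how stable the shares were. For instance, 62 KO-only regions of 124 (50.0%) passed as within 1.5-fold of 50 of 311 (16.1%). A reciprocal overlap of 50% gave 97 KO-only and 117 Control-only regions, 31.2% and 36.7% of members, where all regions gave 42.4% and 51.2%. Promoter limits of 2000 bp upstream to 500 bp downstream gave 81 KO-only and 129 Control-only regions and 77 wider loci, of 514 KO and 567 Control members. Taking any base of a region within the limits gave 84 KO-only, 138 Control-only, 103 wider and 67 narrower, of 729 and 792 members. These rises come with more members or a stricter match by construction. Keeping regions of 3 or more joined peak calls gave 30 Control-only regions of 82 (36.6%, where all Control regions gave 31.2%), 62 KO-only regions of 124 (50.0%, where all KO regions gave 37.4%), and 15 wider and 7 narrower loci of 82. The filter was applied to both lists, so a member also counted as found in 1 list only when its overlapping regions joined only 2 calls. In the unfiltered lists, 2 Control-only and 5 KO-only members joined 3 or more calls. With the filter, the share of members lay above that of all regions in both lists, and the cause was not tested. With equal numbers of the widest regions, 57 of 311 KO members were KO-only and 49 of 291 Control members Control-only (18.3% and 16.8%), where all regions gave 25.2% and 22.0%. The KO-only share was then the larger, while in the full lists the Control-only share was (21.9% against 16.1% of members). Of the motif shares under alternatives, 203 stayed within their main interval and 13 did not, among them Sp1 without the limit on coding TSSs (17.6% in Control and 21.2% in KO). No paired analysis was possible because each genotype has 1 merged list, and leaving out replicates was not possible for the same reason. No read depth is known, so a region missing from 1 list was not found there, and its mark may be present below the calling threshold.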

Other observations

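Among shared loci with under 1000 bp in 1 genotype, which the ranking above left out, Gm48802 near Ankrd55 had 588 bp in Control and 4732 bp in KO (log2 ratio 3.01), more than any ranked locus. Gm46565 had 3165 bp in Control and 912 bp in KO (-1.80). Both were picked out after their values were seen.

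Transfer RNA genes, which RNA polymerase III transcribes, were looked up after the data were seen, because the KO-only region at Gm11527 held 1 (a glutamine tRNA gene). RefSeq places 403 tRNA genes on these chromosomes. Of these, 144 lay in a region of both lists, 9 in Control only and 30 in KO only. Of the lincRNA promoter members, 4 in Control and 5 in KO held a tRNA gene. The 4 shared ones were Gm37233, Gm11205, C230035I16Rik and Gm46404, and Gm11527 was the only one in 1 list. At C230035I16Rik and Gm46404, within the histone and tRNA gene cluster of chromosome 13, the regions had 4294 and 4159 bp and 2562 and 2392 bp in Control and KO. Over all regions holding a tRNA gene, 13 of 113 in KO and 4 of 105 in Control had none in the other list (11.5% and 3.81%), below the 21.5% and 29.5% of all KO and Control regions. No test was made of this difference.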
